A study of Ovis aries with 23 samples.

Results

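MMP8 (matrix metallopeptidase 8, neutrophil collagenase) was measured in lung tissue of 23 sheep with acute respiratory distress syndrome (ARDS), as 1 of 20 features of a custom nCounter assay. The deposited values list the features by tag identifiers, and MMP8 is row T001, which stands at place 1 of the table of 22 probe pairs given with the study. The name therefore rests on that order. All 23 animals were anesthetized, mechanically ventilated, non-pregnant Merino-Dorset ewes of 1 to 3 years. The 14 Ph1 (hypoinflammatory) animals received oleic acid intravenously, and the 9 Ph2 (hyperinflammatory) animals received oleic acid followed by intravenous Escherichia coli lipopolysaccharide (LPS). Lung tissue was taken at 6 h (5 Ph1, 3 Ph2), 12 h (4 Ph1, 3 Ph2) or 24 h (5 Ph1, 3 Ph2), and RNA of 3 lobes of the right lung was pooled per animal. In the study's list, the upper lobe RNA of animals C19 and SD4 fell below its integrity limit for pooling. Whether these lobes entered the pools is not stated. The animals came from 2 trials, 12 from CELTIC, control animals without extracorporeal support or cell treatment, and 11 from the STARDUST pilot study. All groups carried the oleic acid injury, and no uninjured lung was analysed here. The features named here hold no defining markers of lung epithelium or endothelium, so the labelled tissue could not be checked against such markers.

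MMP8 is a collagenase that neutrophils make while they mature in the bone marrow, store in their specific granules as an inactive proenzyme and release when they degranulate. Once activated it cleaves the triple helix of fibrillar collagen. In acute lung injury it is known as a product of neutrophils that enter the tissue and the airspaces. In a homogenate of whole lung, more MMP8 transcript per cell and more cells that carry it cannot be told apart.

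The probe pair is shown because all values below are counts of its hybridisation to the transcript. The pair was designed on RefSeq transcript positions 399 to 498 of sheep MMP8 (gene ID 101120601 in RefSeq), a target of 100 bases. Probe A carries a reporter tag of 35 bases and probe B an arm of 25 bases that all 22 pairs share. The capitals mark the 50 bases of each probe taken to bind the transcript, that is, probe B without the shared arm and the first 50 bases of probe A, which fill the rest of the target. Joined as reverse complements, both stretches gave a run in which 1 of 3 reading frames held no stop codon.
MMP8 probe A: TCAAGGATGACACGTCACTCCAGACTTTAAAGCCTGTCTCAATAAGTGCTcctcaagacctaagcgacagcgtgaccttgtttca
MMP8 probe B: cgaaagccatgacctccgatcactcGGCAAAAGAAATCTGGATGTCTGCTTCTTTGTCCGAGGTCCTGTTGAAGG
MMP8 target read from the pair: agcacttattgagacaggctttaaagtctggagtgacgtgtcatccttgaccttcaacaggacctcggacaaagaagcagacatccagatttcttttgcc

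MMP8 was counted at low numbers in most animals and lay close to the weakest features of the assay in several. Off the log scale, the values of an animal are whole multiples of 1 unit, from which counts were recovered. All features together summed to between 13871 and 34415 counts per animal. MMP8 was counted between 11 and 160 times per animal (median 26) and fewer than 50 times in 19 of 23. For comparison, T007 and T011 are used, the features at places 7 and 11, where the probe table has ZDHHC19, a palmitoyltransferase, and RBP7, a retinol binding protein. The study set RBP7 and a palmitoyltransferase of this family aside as below detection, but its text calls the latter ZDHHC18, so the sources differ on the gene behind T007. T007 had between 3 and 16 counts (median 7) and T011 between 2 and 41 (median 8). Counts of different probes are not compared as expression levels, and both low features serve only as a reference for weak signal.

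The MMP8 count exceeded both T007 and T011 in 21 of 23 animals. The exceptions were SD1 (Ph1, 24 h), with 26 counts against 16 of T007 and 41 of T011, and SD11 (Ph2, 24 h), with 11 counts against 5 and 15. The ratio of MMP8 to the higher of both low features had a median of 2.06 in Ph1 (range 0.634 to 7) and 5.67 in Ph2 (range 0.733 to 12.1). With exact Poisson intervals of 95%, which cover counting error only, the MMP8 interval lay wholly above the intervals of T007 and T011 in 10 animals, 4 of 14 in Ph1 (C3, C11, C17 and SD2) and 6 of 9 in Ph2 (C4, C5, G33, SD4, SD13 and SD9). The highest count, 160 in SD9, had an interval of 136 to 187. The lowest, 11 in SD11, had an interval of 5.49 to 19.7, which overlapped that of both low features.

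**Figure D1:**
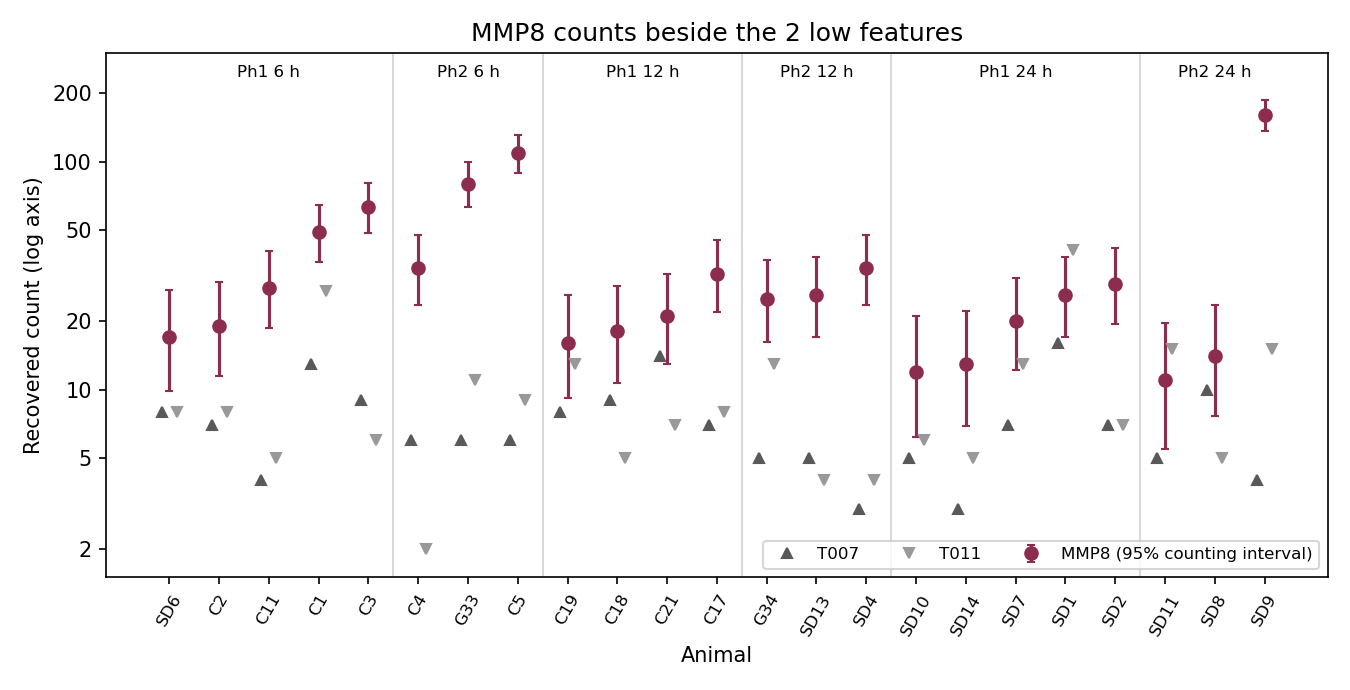
Recovered counts of MMP8 (circles, bars are exact 95% Poisson intervals), T007 and T011 (triangles) in each of the 23 animals, on a log axis, ordered by group and MMP8 count. The MMP8 interval lay wholly above the intervals of T007 and T011 (not drawn) in 10 animals. The MMP8 count lay below that of T011 in SD1 and SD11.

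The spread of MMP8 between animals was close to its counting error in some groups and well above it in others. In Ph1 at 12 h, the SD between animals was 0.32 on the log2 scale and the SD that counting alone would give was also 0.32. In Ph1 at 24 h these values were 0.40 and 0.34, and in Ph2 at 12 h 0.34 and 0.27. By contrast, the SD between animals was 0.84 against 0.28 from counting in Ph1 at 6 h, 1.01 against 0.19 in Ph2 at 6 h and 2.14 against 0.34 in Ph2 at 24 h. Pooled over the 6 groups, counting error made up 10.1% of the variance between animals of the same group.

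Over all time points, the mean of MMP8 was higher in Ph2 than in Ph1, but the phenotypes overlapped widely and the exact Mann-Whitney U test did not pass its threshold. The log2 normalized count ran from 3.38 to 5.99 in Ph1 (median 4.22) and from 3.52 to 7.28 in Ph2 (median 5.09). The highest values, in SD9 (7.28), C5 (7.004) and G33 (6.60), belonged to Ph2, but so did SD8 (3.52) and SD11 (3.63), below every Ph1 animal except SD10 (3.38). Ph2 had a mean of 5.27 ± 1.39 (SD, n = 9) against 4.44 ± 0.67 (SD, n = 14) for Ph1, 0.83 or 1.78-fold more (exact two-sided Mann-Whitney U test, p = 0.141, or 0.314 adjusted for the 20 features by Benjamini-Hochberg). In 7 of 9 Ph2 animals MMP8 lay above the Ph1 median. An unadjusted p below 0.05 was reached by 3 of the 20 features (15%), and MMP8 was not among them. The means of both low features were lower in Ph2 without passing the test, T007 by -0.40 and T011 by -0.21 (exact p = 0.179 and 0.781), while the median of T011 was higher in Ph2 by 0.56. With the mean count of both subtracted from MMP8 in each animal, the difference between phenotypes was 1.15 (exact p = 0.124).

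The unadjusted call for MMP8 depended on the statistic and on whether time point and study entered the test. With neither term, linear normalized counts gave p = 0.0243 (exact permutation test of means). In limma with phenotype alone, the 95% interval of the difference was -0.01 to 1.68 and included 0. With time point and study as blocks, the difference was 0.98 with an interval of 0.20 to 1.75 (limma, adjusted p = 0.156 over the 20 features). In that model 4 of 20 features (20%) had an unadjusted p below 0.05 and 0 an adjusted p below 0.05. With labels permuted only within time points, p was 0.0345 (exact permutation test of means, 109760 arrangements). Permuted within both study and time point, the difference was 0.92 and p = 0.0544 (exact permutation test, 9800 arrangements). This test leaves out SD6, SD4 and SD13, whose study held no animal of the other phenotype at their time point. Single animals also moved the call, since p was 0.0421 without SD8 or without SD11 (exact Mann-Whitney U test), with differences of 1.05 and 1.04. Without SD9, C5 or G33, the Ph2 animals with the highest values, the difference was 0.58, 0.62 and 0.67 (exact p = 0.267 for each).

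**Figure D2:**
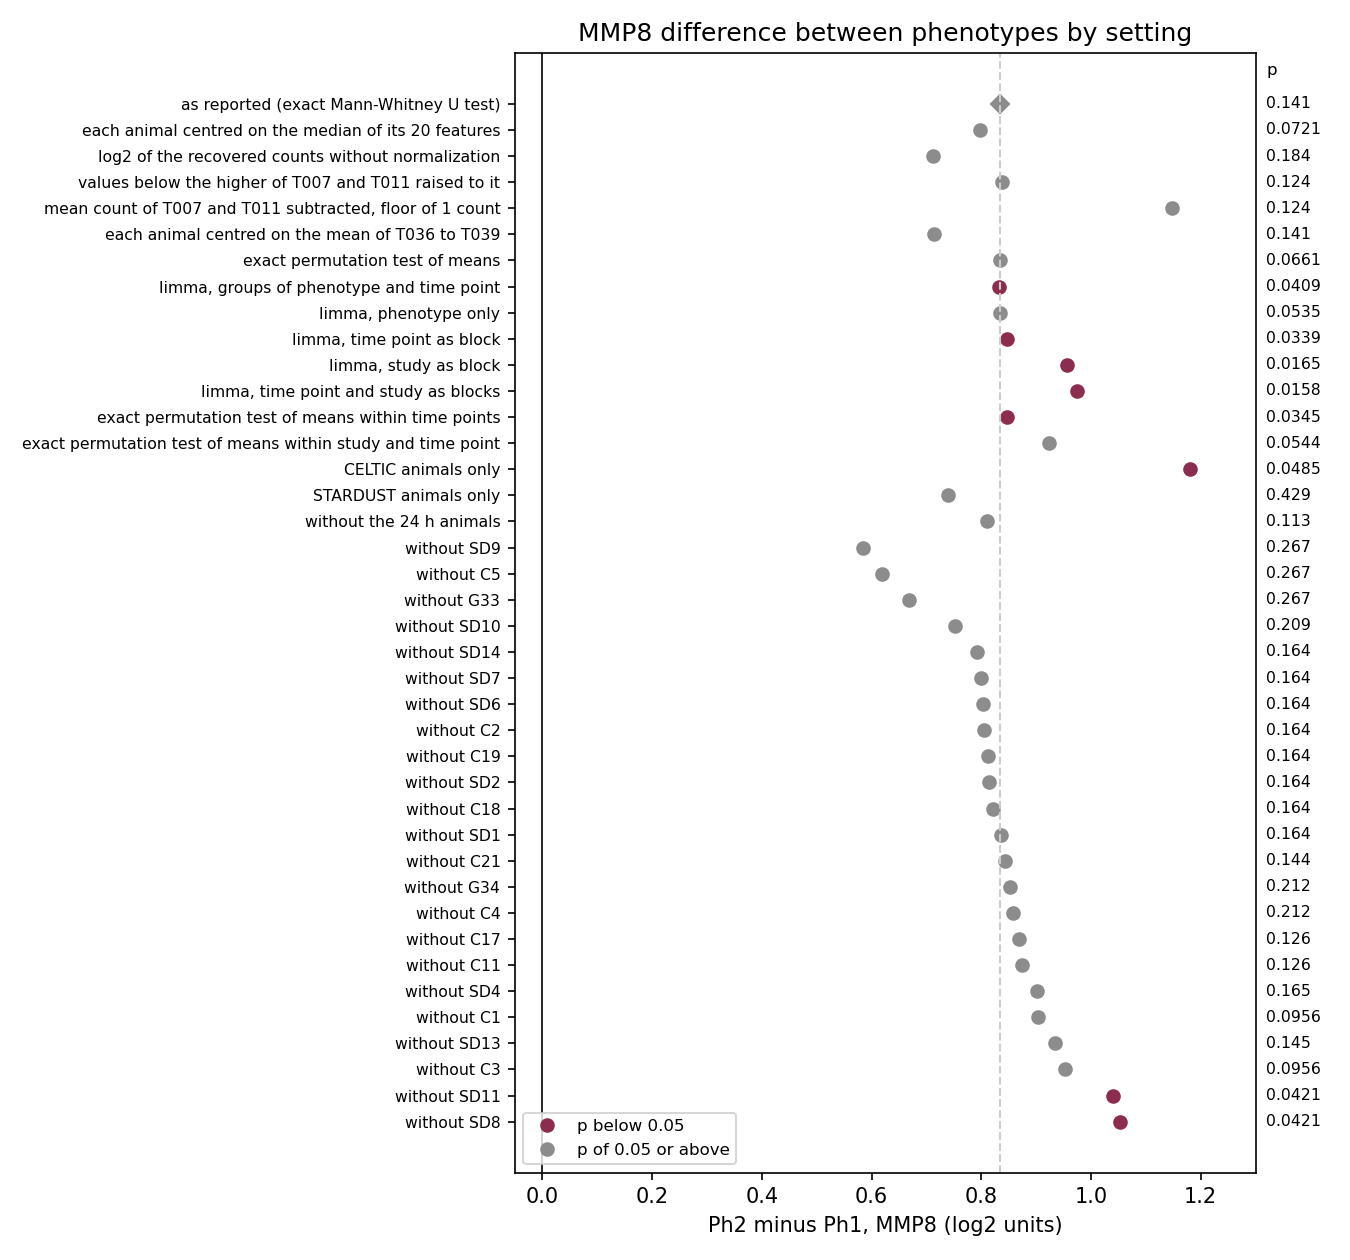
Difference of mean MMP8 between Ph2 and Ph1 in log2 units (x axis) for each setting and each animal left out, with its p at the right. The difference stayed between 0.58 and 1.18 in the settings shown, and p lay on both sides of 0.05.

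Ordered by mean, MMP8 was highest in Ph2 at 6 h (6.23), followed by Ph1 at 6 h (4.88), Ph2 at 24 h (4.81), Ph2 at 12 h (4.78), Ph1 at 12 h (4.47) and Ph1 at 24 h (3.98). The place of Ph2 at 24 h rests on SD9, without which its mean differs from that of Ph1 at 24 h by -0.40 and the group comes last. All 5 pairs of neighbours in this order overlapped. The differences of 0.070, 0.027 and 0.31 between the second and the fifth group were smaller than the larger SD of each pair. Ph2 and Ph1 at 6 h differed by 1.35 and Ph1 at 12 and 24 h by 0.49, more than the larger SD of 1.01 and 0.40, but the exact Mann-Whitney U test gave an adjusted p of 0.357 for both over the 5 pairs.

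**Figure D3:**
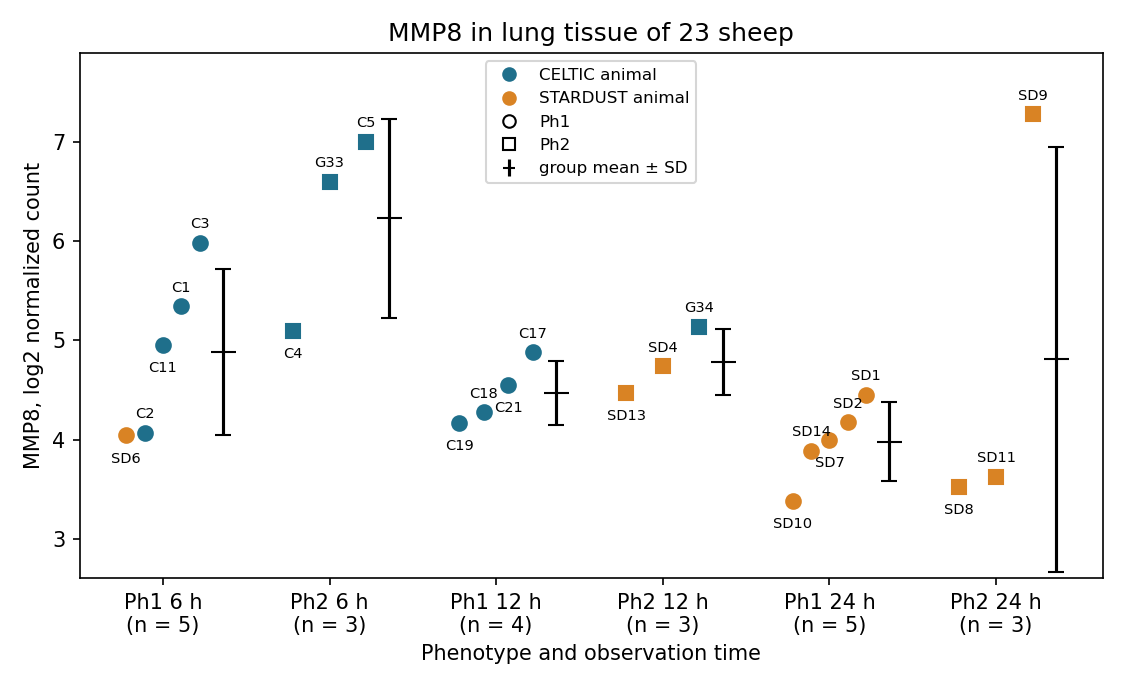
Log2 normalized count of MMP8 (y axis) in each animal by phenotype and observation time (circles Ph1, squares Ph2, colours mark the study), with the mean and SD of each group beside the points. Both highest groups are those at 6 h, and SD9 lies far above SD8 and SD11 in Ph2 at 24 h.

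At 6 h, MMP8 was 5.09 in C4, 7.004 in C5 and 6.60 in G33 of Ph2. In Ph1 it was 4.04 in SD6, 4.07 in C2, 4.96 in C11, 5.34 in C1 and 5.99 in C3. C5 and G33 lay above all Ph1 animals, while C4 lay below C1 and C3. The difference was 1.35 or 2.55-fold (exact p = 0.143, adjusted p = 0.556 over the 20 features), in a design that allows no p below 0.0357. Among the CELTIC animals of 6 h, which leave out SD6, it was 1.14 (exact p = 0.229). Of the 20 features, 0 (0%) had an exact p below 0.05 at this time point.

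At 12 h, MMP8 was 4.47 in SD13, 4.74 in SD4 and 5.14 in G34 of Ph2. In Ph1 it was 4.16 in C19, 4.28 in C18, 4.55 in C21 and 4.88 in C17. Only G34 lay above all Ph1 animals, and it is the Ph2 animal that shares the CELTIC study with them. The difference was 0.31 or 1.24-fold (exact p = 0.400), where the smallest p allowed is 0.0571. It was 0.14 without G34, and 0.86 with the mean count of T007 and T011 subtracted. At this time point 6 of 20 features (30%) did not overlap between the phenotypes, and MMP8 was not one of them.

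At 24 h, the level of MMP8 was 7.28 in SD9, 3.63 in SD11 and 3.52 in SD8 of Ph2. In Ph1 it was 3.38 in SD10, 3.89 in SD14, 4.00 in SD7, 4.17 in SD2 and 4.45 in SD1. SD9 was the highest of all 23 animals, while SD8 and SD11 were lower than 4 of 5 Ph1 animals. The means differed by 0.83 or 1.78-fold, but the Ph2 median was lower than the Ph1 median by 0.37, and the exact Mann-Whitney U test gave p = 1, where the smallest p allowed is 0.0357. Without SD9 the difference turned to -0.40 (exact p = 0.381). Without SD8 or SD11 it was 1.47 and 1.42. In SD9, T007 and T011 had 4 and 15 counts beside the 160 of MMP8, while the SD8 count of 14 stood beside 10 and 5.

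The difference between phenotypes was not shown to vary with time point. The interaction in limma had F = 0.610 for MMP8 (adjusted p = 0.803 over the 20 features), where 1 of 20 features (5%) had an unadjusted p below 0.05. Without SD9, the F of MMP8 was 3.72 and passed an unadjusted threshold of 0.05.

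Within Ph1, MMP8 averaged 4.88 ± 0.84 in the animals of 6 h, 4.47 ± 0.32 in those of 12 h and 3.98 ± 0.40 in those of 24 h (SD, n = 5, 4 and 5). The time points overlapped (exact permutation Kruskal-Wallis test, p = 0.111, adjusted p = 0.287 over the 20 features). In this test 4 of 20 features (20%) had an unadjusted p below 0.05. Among the CELTIC animals of Ph1, the mean was 5.09 ± 0.80 (SD, n = 4) for 6 h against 4.47 ± 0.32 (SD, n = 4) for 12 h, which differ by -0.62 (exact p = 0.343). Among the STARDUST animals of Ph1, the single animal at 6 h, SD6, had 4.04, within the range of the animals at 24 h. Within Ph2, the means were 6.23 ± 1.01, 4.78 ± 0.34 and 4.81 ± 2.14 (SD, n = 3 each, exact permutation Kruskal-Wallis test, p = 0.511). In this test 1 of 20 features (5%) had an unadjusted p below 0.05. Without SD9, the unadjusted exact p of MMP8 was 0.0321.

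In Ph1, MMP8 was lower in the animals of STARDUST than in those of CELTIC, on an unadjusted test. It ran from 4.07 to 5.99 in the 8 CELTIC animals of Ph1 (median 4.72) and from 3.38 to 4.45 in the 6 STARDUST animals of Ph1 (median 4.02). Of the 6 STARDUST animals, 0 lay above the CELTIC median. The mean was 3.99 ± 0.36 in STARDUST (SD, n = 6) and 4.78 ± 0.66 in CELTIC (SD, n = 8), a difference of -0.79 or 0.578-fold (exact Mann-Whitney U test, p = 0.0127, or 0.0506 when adjusted over the 20 features). An unadjusted p below 0.05 was found for 5 of 20 features in this comparison (25%) and an adjusted p below 0.05 for 3 (15%). All Ph1 animals at 24 h belonged to STARDUST and all at 12 h to CELTIC, so the studies share only 6 h, with SD6 alone in STARDUST. Study and time point therefore cannot be told apart. SD6 was lower than all 4 CELTIC animals of 6 h, but close to C2 (17 and 19 counts). Their Poisson intervals overlapped (9.90 to 27.2 and 11.4 to 29.7). The summed counts of the features also differed, with a median of 16183.5 in CELTIC and 21902 in STARDUST over both phenotypes. T007 was 2.53 in STARDUST and 3.06 in CELTIC (exact p = 0.108), and T011 3.08 and 3.06, in the same Ph1 animals. The RNA integrity numbers given with the study tended to be lower in CELTIC than in STARDUST. The study also states that its second trial, STARDUST, was completed later and drew on a different flock. It does not exclude an influence of sample age on the values at 24 h. The part of depth, background, RNA integrity, flock and sample age in the MMP8 difference was not tested. Without the authors' normalization, the difference was -0.57 (exact p = 0.181), and after subtracting the animal's median over the 20 features it was -0.63 (exact p = 0.228).

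In Ph2, MMP8 was 5.09, 5.14, 6.60 and 7.004 in the CELTIC animals C4, G34, G33 and C5. It was 3.52, 3.63, 4.47, 4.74 and 7.28 in the STARDUST animals SD8, SD11, SD13, SD4 and SD9. All STARDUST animals but SD9 were lower than all CELTIC animals. The difference was -1.23 (exact p = 0.190), where 2 of 20 features (10%) had an exact p below 0.05, and it was -1.87 without SD9 (exact p = 0.0286). Of the 4 CELTIC animals, 3 were of 6 h and 1 of 12 h, while the 5 STARDUST animals were of 12 h (2) and 24 h (3), so study and time point are mixed here too. With time point as a block, the difference was -0.53 (limma, adjusted p = 0.921). Among the CELTIC animals taken alone, the Ph2 mean was above that of Ph1 by 1.18 (exact p = 0.0485), and among the STARDUST animals by 0.74 (exact p = 0.429). The CELTIC value mixes time points, since 3 of 4 Ph2 animals but 4 of 8 Ph1 animals were of 6 h, and at 6 h alone the difference was 1.14 (exact p = 0.229). These values do not show that the studies differ, since the interaction of phenotype and study had an estimate of -0.44 (limma, adjusted p = 0.803).

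The assay held 5 other genes chosen here as neutrophil granule and surface genes, on a list drawn up with earlier results of these data known. OLFM4 (olfactomedin 4) marks a subset of neutrophils and lies in specific granules, LCN2 (lipocalin 2) and TCN1 (transcobalamin 1) are proteins of the same granules, CD177 is a surface glycoprotein of neutrophils and CEACAM1 an adhesion molecule of neutrophils and epithelium. Like MMP8, these features are named by their place in the probe table. CD177 was counted between 6 and 41 times per animal (median 22). OLFM4 was counted between 4 and 1316 times (median 53), and between 4 and 23 times in Ph1 at 12 h. Both therefore reach down to the counts of T007 and T011, and their differences share the limit of low counts. Over all time points, 0 of the 5 were higher in Ph2 at an unadjusted exact p below 0.05 and 1, CEACAM1, was lower. CEACAM1 differed by -0.37 (exact p = 0.00689, adjusted p = 0.0857 over the 20 features). Of all 20 features, 1 (5%) was higher and 3 (15%) passed in either direction, so these counts lie near those of the whole assay. MME and ADGRE3, surface proteins that neutrophils also carry, were not on the list. Their means were lower in Ph2, by -0.49 and -0.40 (exact Mann-Whitney U test, p = 0.0622 and 0.0534). The median difference was 0.22 over the list and 0.068 over the 20 features, against 0.83 for MMP8, which ranked next after GPR84 (1.52), a fatty acid receptor of myeloid cells, and OLFM4 (1.42). At 6 h, where MMP8 differed by 1.35, the list had a median difference of -0.14, with OLFM4 at 2.31, CD177 at 0.59 and TCN1 at -0.55. At 12 h the median was 0.61 and at 24 h -0.30, against 0.31 and 0.83 for MMP8. At 6 and 24 h, 0 of the 5 genes passed the test in either direction, against 0 of the 20 features (0%). At 12 h the test cannot pass, and OLFM4 (2.96), TCN1 (0.68) and LCN2 (0.61) were higher in all 3 Ph2 animals than in all 4 Ph1 animals, at the smallest p that the exact test allows (0.0571). They are 3 of the 6 features (30% of 20) without overlap at 12 h, and MMP8 overlapped.

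The 3 features whose values over the 23 animals were most like those of MMP8, by the size of Spearman's rho among 19 features, were T037, MME and OLFM4. All values share the normalization factor of their animal, and the comparisons below are therefore also given without it. T037 has no gene name here. Beside the 16 genes named by place, the probe table holds 6 housekeeping genes, 3 of which the study used for scaling, so T036 to T039 would be 4 of these 6, but which ones is not settled. T037 rose with MMP8 over the animals with rho = 0.80 and Pearson's r = 0.79 (permutation test, p = 2e-05 and 1e-05, the latter the smallest that 100000 permutations can give, adjusted p = 0.000285 and 0.00019 over 19 features). MME (neprilysin, CD10), a membrane peptidase of mature neutrophils and of lung structural cells, went the other way, with rho = -0.78 and r = -0.76 (permutation p = 3e-05 and 7e-05, adjusted p = 0.000285 and 0.000665). OLFM4 had rho = 0.68 and r = 0.64 (permutation p = 0.00056 and 0.00084, adjusted p = 0.00355 and 0.00532). These p are over all 23 animals, across phenotypes, studies and time points. T037 and MME were also the 2 of 20 features (10%) without overlap between the studies in Ph1, with T037 lower and MME higher in STARDUST.

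**Figure D4:**
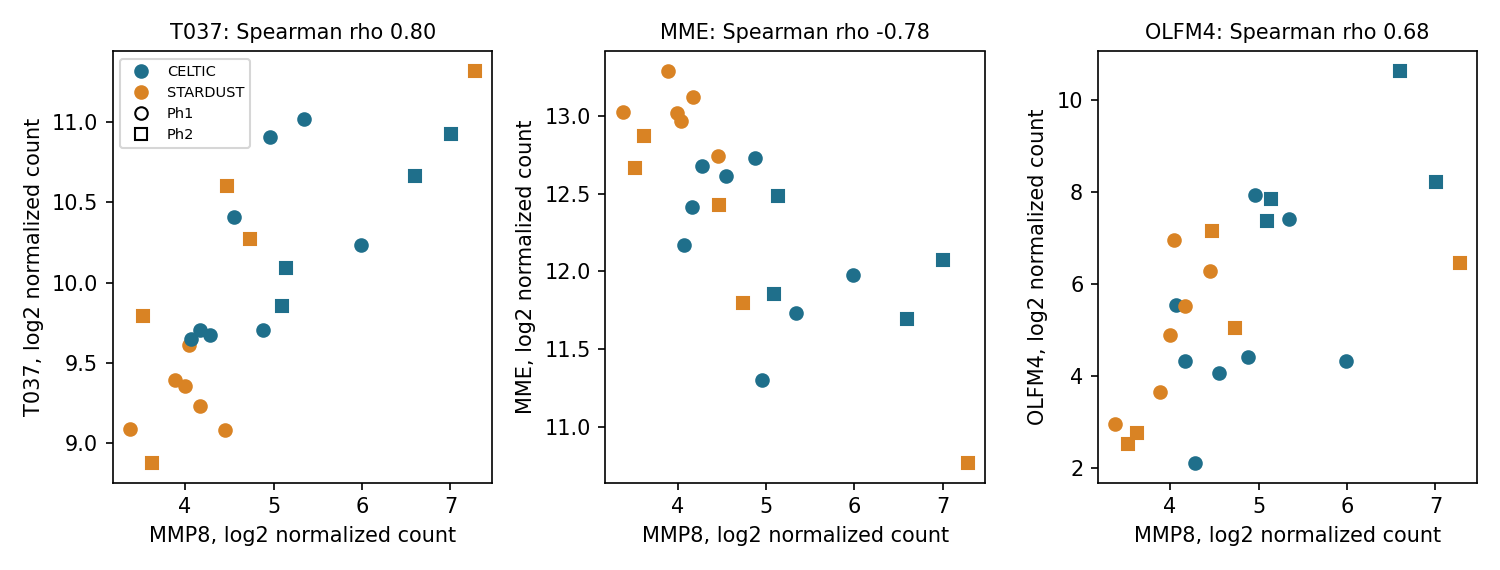
Log2 normalized counts of T037, MME and OLFM4 (y axes) against MMP8 (x axes) in the 23 animals, by phenotype (symbol) and study (colour). T037 was high and MME low where MMP8 was high, with SD9 at the far right of each panel.

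Without SD9 and C5, the animals farthest from the median of MMP8, r was 0.69 for T037, -0.71 for MME and 0.69 for OLFM4 (n = 21). For T037, rho was 0.71 within Ph1, 0.83 within Ph2, 0.75 within CELTIC and 0.56 within STARDUST, and 0.42 in STARDUST without SD9. For MME, rho was -0.74 within Ph1, -0.73 within Ph2, -0.52 within CELTIC and -0.61 within STARDUST, and -0.48 in STARDUST without SD9. For OLFM4, rho was 0.32 within Ph1, 0.70 within Ph2, 0.63 within CELTIC and 0.79 within STARDUST. When each value was taken as its deviation from the mean of its own phenotype and time point, r was 0.76 for T037, -0.70 for MME and 0.52 for OLFM4. On recovered counts without normalization, rho was 0.76, -0.66 and 0.68 for the same 3 features, and after subtracting the animal's median 0.79, -0.48 and 0.61. Of the other listed granule and surface genes, CD177 had rho = 0.57 and TCN1 0.51, while LCN2 had -0.54 and CEACAM1 -0.085. The rho of LCN2 was -0.60 within STARDUST and 0.063 within CELTIC. The summed count of an animal had rho = -0.37 with MMP8.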

How the data were processed

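The values deposited by the authors are normalized counts on the log2 scale, for 20 features and 23 animals. According to the methods, nCounter counts had a background estimated on negative controls subtracted, were scaled to 3 housekeeping genes (POLR2A, RPL19, TBP) and were log2 transformed. Unlogged, the values of an animal were whole multiples of 1 unit to within 0.0001 (largest deviation 3.55e-10), and the smallest such numbers were taken as recovered counts. The background in the methods, a mean plus 2 SD, need not be a whole number, yet the values were whole multiples. T007 and T011 also kept between 2 and 41 counts in every animal. Whether background had been subtracted was not tested, so differences at low counts may include it. Neither raw counts nor negative controls were analysed here. Low counts limit precision, and intervals cover counting error only.

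Features were named by their place in the probe table (16 by place, 4 unnamed), and probe sequences were read from that table. MMP8, the lists and the tests were chosen with earlier results of these data known. Named beside MMP8 were T007, T011, the 3 features with the largest absolute Spearman's rho, and the listed granule and surface genes, to which GPR84, which outranked MMP8, was added after its value was seen. ADGRE3, RETN, HAL and T038 were also named after their values were seen. Phenotypes and studies were compared by Mann-Whitney U tests (exact, two-sided), time points by Kruskal-Wallis tests (exact permutation), interactions with limma, with Benjamini-Hochberg adjustment over the 20 features. The Mann-Whitney U, Kruskal-Wallis and interaction tests and the recovery of counts were first checked on simulated data. The permutation tests of means and of correlations and the limma blocks were not checked in this way. Python 3.11.15, numpy 2.4.6, scipy 1.17.1, pandas 2.3.3, matplotlib 3.10.9, R 4.3.3 and limma 3.58.1 were used.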

Additional observations from a re-analysis of the deposited data

How the results depend on the processing

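No paired analysis was possible because each animal belongs to 1 group only. After seeing the data, subtracting the mean of T036 to T039 and permuting within study and time point were added. The Ph2 minus Ph1 difference of MMP8 over all times (0.83, exact p = 0.141) passed the threshold with p = 0.0409 in limma with groups of phenotype and time point (0.83), 0.0339 with time point (0.85), 0.0165 with study (0.96) and 0.0158 with both (0.98) as blocks in limma. It also passed in the exact permutation test of means within time points (0.85), on linear normalized counts (33.8, exact permutation p = 0.0243) and among CELTIC animals only (1.18). The other 11 of 18 alternatives stayed at or above 0.05. In Ph1, the STARDUST minus CELTIC difference (-0.79) lost its call when centred on the median of the features (-0.63) and without normalization (-0.57). It lost its call after Benjamini-Hochberg adjustment too (-0.79, adjusted p = 0.0506). The causes of the lost calls were not tested. In limma with a block for time point (-1.05) and without the 24 h animals (-0.74), SD6 was the only STARDUST animal compared with CELTIC. These settings give an effect size only. For the study difference in Ph2, the block for time point (-0.53) rests on G34 alone in CELTIC and is likewise an effect size only. No other alternative, except leaving out an animal, moved the differences at single time points, the tests across time points, the study difference in Ph2 or the interaction across the threshold.

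When animals were left out singly, the phenotype difference ranged from 0.58 to 1.05 over all times, 0.97 to 1.92 at 6 h, 0.14 to 0.47 at 12 h and -0.40 (without SD9) to 1.47 at 24 h. The study difference ranged from -0.89 to -0.62 in Ph1 and -1.87 to -0.88 in Ph2. The Kruskal-Wallis statistic ranged from 2.99 to 5.49 in Ph1 and 1.11 to 5.36 in Ph2, and the F of the interaction from 0.246 to 3.72. Of these, the calls without SD8 or SD11 (over all times) and without SD9 (study in Ph2, time in Ph2, interaction) crossed the threshold. Depth limits small differences, since the counting SD of MMP8 in 1 animal, pooled over the groups, was 0.30 on the log2 scale.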

Other observations

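SD9, which had the highest MMP8 of the 23 animals, also had the highest T037 (11.32) and the lowest MME (10.77), with OLFM4 at 6.47. These features were picked by their rho with MMP8 over animals that include SD9, so this is not a separate result. SD9 was also the highest of the 23 animals in RETN (resistin, 10.67), HAL (histidine ammonia-lyase, 11.05) and T038 (7.76). SD8 and SD11, of the same phenotype and time point, had T037 at 9.79 and 8.88, MME at 12.66 and 12.87 and OLFM4 at 2.52 and 2.75. OLFM4 counts in Ph2 at 24 h ran from 6 to 91 (median 7), so the values of SD8 and SD11 lie near the low features. C3 had the highest MMP8 of Ph1 (5.99) with OLFM4 at 4.33, while C11, with lower MMP8 (4.96), had the highest OLFM4 of Ph1 (7.95).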
